A study of Mus musculus with 7 samples.

Results

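The genes described here encode the auxiliary subunits of the AMPA receptor, the ion channel that carries most fast excitatory transmission in the brain. They are 10 of the 22248 genes in the deposited gene table and were taken by symbol, through their Ensembl identifiers: the transmembrane AMPA receptor regulatory proteins (TARPs) Cacng2, Cacng3, Cacng4, Cacng5, Cacng7 and Cacng8, the cornichon homologues Cnih2 and Cnih3, and Shisa9 and Gsg1l. RNA was sequenced from hippocampal synaptoneurosomes, a fraction of broken-off nerve endings and the postsynaptic pieces stuck to them, of wild-type C57Bl/6J female mice. Sub-chronic AM6545 was given in 4 libraries (B, D, E, F) and vehicle in 3 (B, D, E), and the labels name no further allele or agent. AM6545 blocks the cannabinoid receptor CB1, mostly outside the brain. Dose, duration, age and the number of mice per library were not given in the sources used here, and nothing says that the libraries came from separate animals. P-values therefore measure the spread between these libraries, which may be technical.

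AMPA receptors are tetramers of the pore subunits encoded by Gria1 to Gria4. Auxiliary subunits bind to the pore in different combinations and influence how the receptor leaves the endoplasmic reticulum, where it is held at the synapse and how fast it closes. The type I TARPs (Cacng2, Cacng3, Cacng4 and Cacng8) bind PSD-95 through their last amino acids, and Cacng8 is known as the main TARP of the hippocampus. In hippocampal pyramidal cells, cornichons and TARPs act on the same receptors.

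The end of each coding sequence is shown because it holds the PSD-95 binding stretch of the type I TARPs. Each line gives the last 30 coding bases, 5′ to 3′, of the annotated transcript with the most counts, with the 4 codons before the stop codon in capitals. Sequences and coordinates are from GENCODE M21 on GRCm38 (mm10), the build that the submitters' processing notes name. The type I ends lie at chr15:77995149-77995178 on the minus strand (Cacng2), chr7:122768817-122768846 on the plus strand (Cacng3), chr11:107734780-107734809 on the minus strand (Cacng4) and chr7:3415576-3415605 on the plus strand (Cacng8). The type II ends lie at chr11:107877352-107877381 on the minus strand (Cacng5) and chr7:3366919-3366948 on the plus strand (Cacng7). Those of the other 2 genes lie at chr16:12267774-12267803 on the plus strand (Shisa9) and chr7:125881141-125881170 on the minus strand (Gsg1l).
Cacng2: acagccaaccgccggACCACGCCCGTAtga
Cacng3: ccggccaacagacgtACCACGCCTGTCtga
Cacng4: atgctgaaccggcggACGACTCCCGTGtga
Cacng8: acgctcaacaggaaaACCACGCCCGTGtag
Cacng5: tatgaccagatgtcaTCATCTCCCTGCtga
Cacng7: catctccacatctccACTTCGCCGTGCtga
Shisa9: actaacagcaaaacaGAAGTGACTGTCtga
Gsg1l: cagtgctgggtcctgGGGCACTGGGTGtga
Of the 12 capital bases of Cacng2, the other type I TARPs shared 11 (Cacng8), 10 (Cacng3) and 9 (Cacng4) by position. The type II TARPs shared 6 (Cacng7) and 5 (Cacng5), Shisa9 shared 4 and Gsg1l 2. The coding sequences ran from 160 codons in both cornichons to 423 in Cacng8. The ends of Cnih2 and Cnih3 span 2 exons and are not printed.

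All 10 members were detected, but at levels that spanned from 1530 to 0.807 TPM (length-scaled transcript abundance, computed from the deposited transcript counts and annotated lengths, mean of 7 libraries). Cnih2, which promotes export of the receptor and slows its closing, stood at 1424 ± 94.4 TPM (SD, n = 4) in AM6545 and 1672 ± 183 TPM (SD, n = 3) in vehicle. That was above each pore subunit, the highest of which was Gria2 at 378 TPM over all libraries. Its relative Cnih3 followed at 95.1 TPM, and Cacng3, a forebrain TARP, at 64.1 TPM. Shisa9, whose product makes receptors desensitise more strongly, and Gsg1l, which slows their recovery, were at 16.9 and 16.8 TPM. Stargazin, the founding TARP encoded by Cacng2, was at 10.9 TPM, Cacng4 at 9.17 TPM and Cacng5 at 7.69 TPM. Cacng8 reached 2.70 TPM and Cacng7 0.807 TPM.

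The order held in all 7 libraries, without overlap of the libraries' ranges, for Cnih2 over Cnih3 (16.1-fold), Cnih3 over Cacng3 (1.48-fold), Cacng3 over Shisa9 (3.80-fold), Cacng5 over Cacng8 (2.84-fold) and Cacng8 over Cacng7 (3.35-fold). Shisa9 was above Gsg1l in 4 of the 7 libraries only. Gsg1l was above Cacng2 in 7 of 7, Cacng2 above Cacng4 in 6 and Cacng4 above Cacng5 in 5, and the ranges of these neighbours overlapped. Dividing gene counts by the mean length of all annotated transcripts put Cacng4 (11.2 TPM) above Cacng2 (8.06 TPM) and left the other places as they were.

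**Figure D1:**
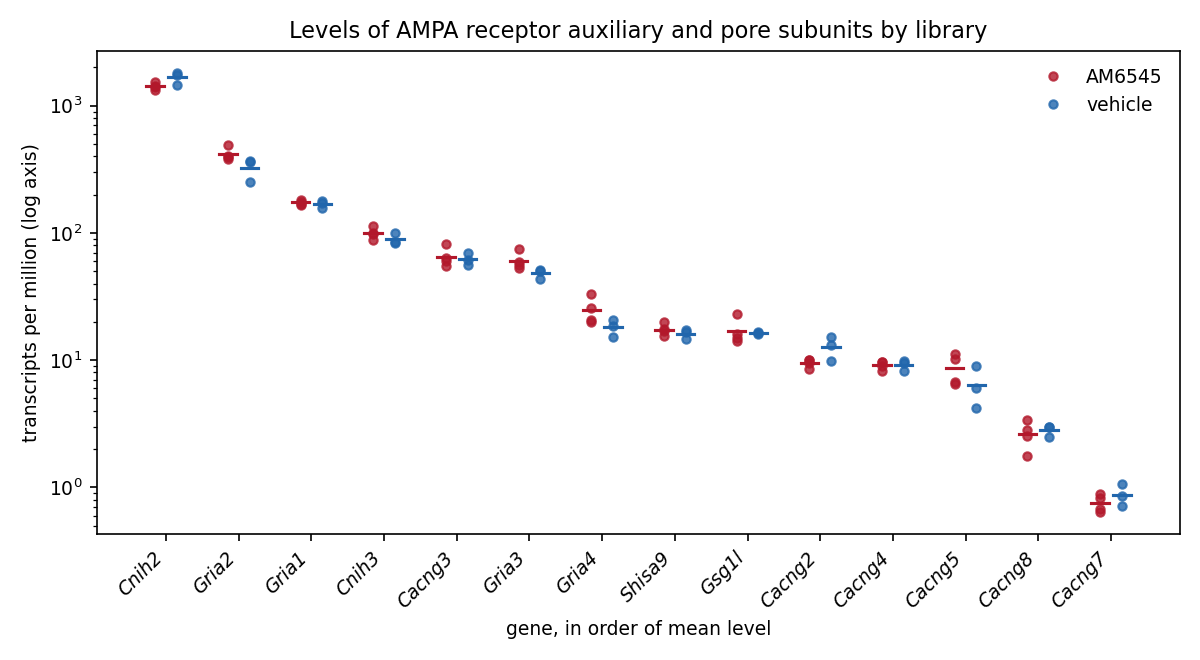
Level of each auxiliary subunit gene and each pore subunit gene per library, in TPM on a log axis, with AM6545 and vehicle libraries as separate points and short lines at the group means. Cnih2 sits above all others at a mean of 1530 TPM, and Cacng7 is lowest at 0.807 TPM.

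The low value of Cacng8 rested on few reads. It had between 22 and 40 estimated counts per library, and Cacng7 between 13 and 35. In the annotation the main Cacng8 transcript ends 43 bases after its stop codon, whereas the main transcripts of the other 9 members go on for 547 to 3401 bases, and the RefSeq gene ends 618 bases further on. Its coding sequence is 66.6% G and C and lacks an annotated start codon. The part of these properties in the low count was not tested.

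Against this background the AM6545 and vehicle libraries were compared gene by gene. No member passed an adjusted p of 0.05 (edgeR quasi-likelihood test, Benjamini-Hochberg), the threshold that 0.00682% of the 14654 genes tested passed. Cacng2 and Cnih2 were below an unadjusted p of 0.05, both lower in AM6545. Among all genes 8.70% were below it in that direction, 5.86% in the other and 14.6% in either. CPM, counts scaled by TMM to a common library size, of Cacng2, Cacng7 and Cnih2 were lower in all 4 AM6545 libraries than in any vehicle library, as for 7.19% of all genes. No member was higher without overlap, against 6.63% of all genes. The log2 difference was negative for 7 members and positive for 3, with a median of -0.09, beside a median of 0.01 over all genes. These counts are a description.

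**Figure D2:**
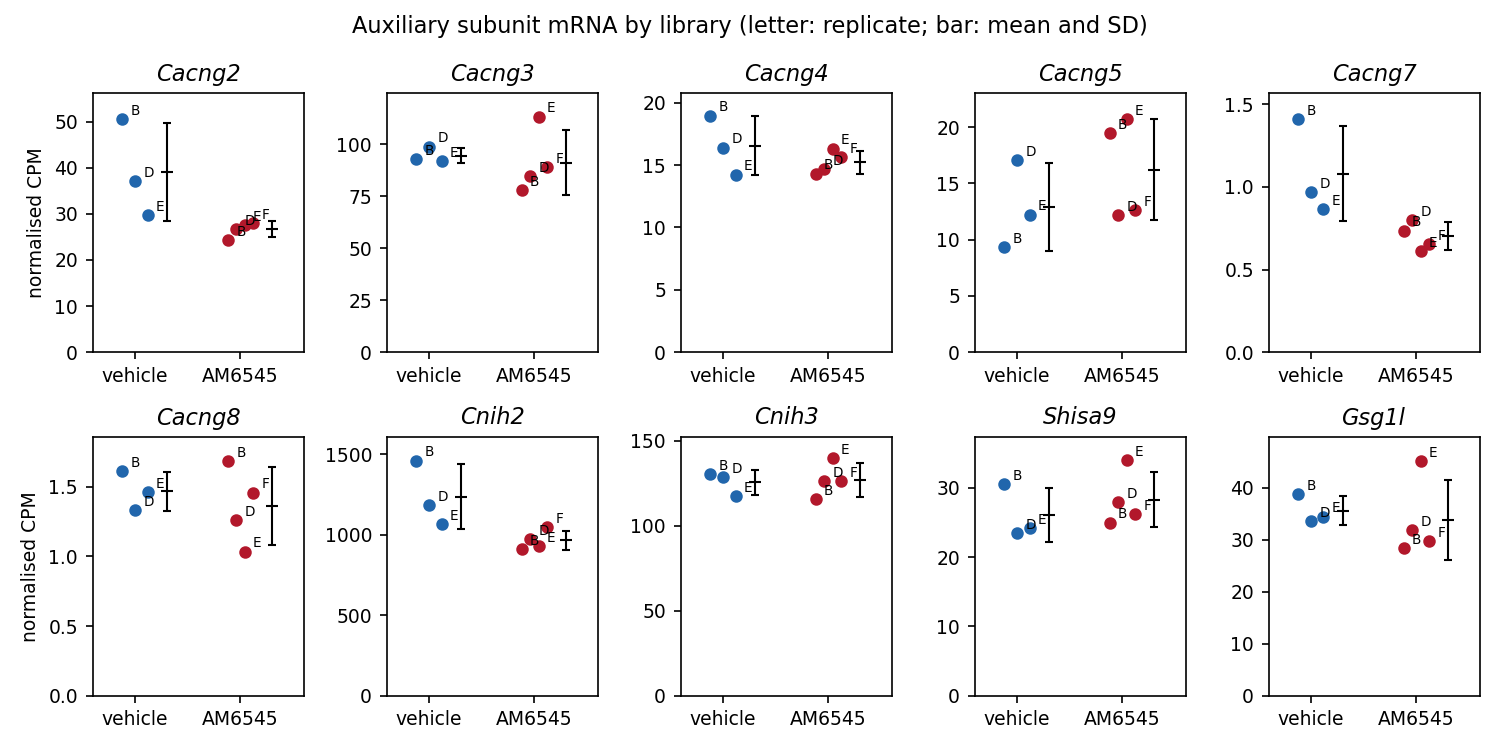
CPM of each member in each library, 1 panel per gene with its own axis from 0, points labelled by replicate letter and bars at the group mean with its SD. AM6545 and vehicle points separate for Cacng2, Cacng7 and Cnih2 and overlap for the other 7 genes.

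Among the type I TARPs, Cacng2 (chr15:77991748-78120028, minus strand) had the smallest p of all members. Its AM6545 libraries B, D, E and F held 24.3, 26.7, 27.6 and 28.1 CPM. Its vehicle libraries B, D and E held 50.6, 37.1 and 29.7 CPM. The AM6545 values lay close together, while vehicle B was far above vehicle E, which was only just above the highest AM6545 library. The means were 26.7 ± 1.69 CPM (SD, n = 4) and 39.1 ± 10.6 CPM (SD, n = 3). The log2 difference was -0.56 (SE 0.15, 95% interval -0.89 to -0.22), with an adjusted p of 0.205 in edgeR. Without vehicle B it was -0.33. Without vehicle E it was -0.72, with an adjusted p of 0.0214 in edgeR, in a comparison that called 6.38% of all genes. With all 7 libraries limma-voom, fitted with quality weights per library, gave -0.47 and called it (adjusted p 0.0375, 2.69% of all genes called). DESeq2 did not call it (adjusted p 0.0526, 1.62% called). No other member was called by either. On the TPM scale, which is not scaled by TMM, vehicle E (9.89 TPM) lay below 2 AM6545 libraries.

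The differences of the other type I TARPs lay within the spread between libraries. Cacng3 (chr7:122670492-122769393, plus strand) held 91.3 ± 15.5 CPM (SD, n = 4) in AM6545 against 94.7 ± 3.76 CPM (SD, n = 3) in vehicle, a log2 difference of -0.05 (SE 0.12, 95% interval -0.32 to 0.22). AM6545 held both its highest library, E at 113 CPM, and its lowest, B at 77.9 CPM. Cacng4 (chr11:107732357-107794557, minus strand), a TARP known from developing brain and glia, held 15.2 ± 0.914 CPM (SD, n = 4) against 16.5 ± 2.37 CPM (SD, n = 3). Its log2 difference was -0.12 (SE 0.12, 95% interval -0.39 to 0.14) and -0.01 without vehicle B, its highest library. Cacng8 (chr7:3390683-3415648, plus strand) ranged from 1.03 to 1.69 CPM in AM6545 and from 1.33 to 1.61 CPM in vehicle. Its 95% interval of -0.65 to 0.43 on the log2 scale was the widest of the type I TARPs. At this depth the data do not tell apart the differences inside it, and no detection limit was computed.

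The type II TARPs differed from each other in sign. Cacng7 (chr7:3332955-3368221, plus strand) held 0.735, 0.801, 0.612 and 0.652 CPM in AM6545 B, D, E and F. Vehicle B, D and E held 1.41, 0.968 and 0.866 CPM. The groups did not overlap, but these are 13 to 21.2 counts per AM6545 library and 16 to 35 per vehicle library. The log2 difference was -0.63 (SE 0.29, 95% interval -1.26 to 0.00), with an adjusted p of 0.343 in edgeR. It was -0.39 without vehicle B. On the TPM scale the groups overlapped, with AM6545 D (0.820 TPM) and E (0.884 TPM) above vehicle E (0.719 TPM).

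Cacng5 (chr11:107874605-107915055, minus strand), an atypical TARP, varied most within groups. It held 19.5, 12.2, 20.7 and 12.6 CPM in AM6545 B, D, E and F and 9.34, 17.1 and 12.2 CPM in vehicle B, D and E. AM6545 B and E were high, AM6545 D and F lay within the vehicle range, and the coefficients of variation were 27.5% and 30.4%. The log2 difference was 0.33 (SE 0.24, 95% interval -0.20 to 0.86), and limma-voom with its library weights gave -0.14. Cacng4 and Cacng5 lie close together on chromosome 11, as do Cacng7 and Cacng8 on chromosome 7.

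Of the cornichons, Cnih2 (chr19:5092868-5098521, minus strand) had the lower values in AM6545, and Cnih3 had similar means in both groups. Cnih2 held 912, 971, 929.5 and 1047 CPM in AM6545 B, D, E and F. It held 1460.4, 1184 and 1067 CPM in vehicle B, D and E. The groups did not overlap, and vehicle E again lay just above the highest AM6545 library, F. The means were 965 ± 60.2 CPM (SD, n = 4) and 1237 ± 202 CPM (SD, n = 3), and the log2 difference was -0.36 (SE 0.12, 95% interval -0.62 to -0.10), with an adjusted p of 0.246 in edgeR. It was -0.22 without vehicle B, and -0.45 with an adjusted p of 0.0420 in edgeR without vehicle E. On the TPM scale AM6545 F (1545 TPM) was above vehicle E (1467 TPM). Cnih3 (chr1:181352628-181460641, plus strand) held 127 CPM on average in AM6545 and 126 CPM in vehicle, and its log2 difference was 0.02 (SE 0.10, 95% interval -0.19 to 0.23), the narrowest interval of the members.

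The remaining members are not TARPs, although the Gsg1l protein belongs to the same claudin-like superfamily. Shisa9 (chr16:11984113-12270902, plus strand) ranged from 24.96 to 33.96 CPM in AM6545 and from 23.5 to 30.5 CPM in vehicle. Its log2 difference was 0.12 (SE 0.13, 95% interval -0.18 to 0.41). Gsg1l (chr7:125878420-126082411, minus strand) ranged from 28.5 to 45.2 CPM in AM6545 and from 33.6 to 38.9 CPM in vehicle, with a log2 difference of -0.08 (SE 0.15, 95% interval -0.41 to 0.25). The highest library of both genes was AM6545 E, which was also the highest for Cacng3, Cacng5 and Cnih3.

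**Figure D3:**
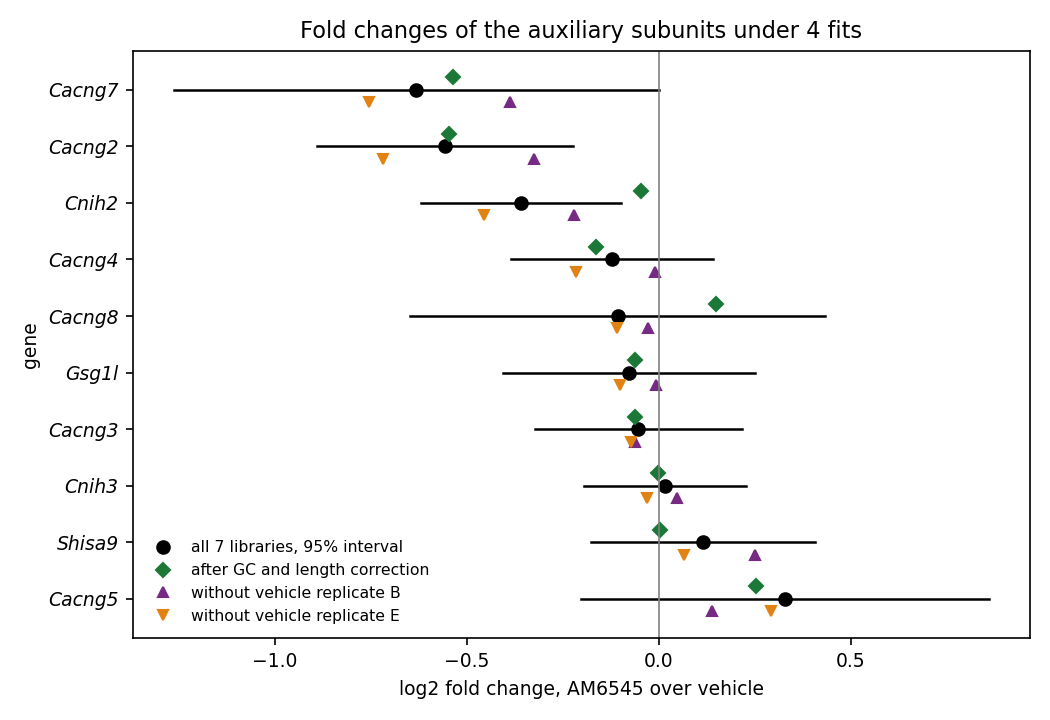
Log2 difference, AM6545 minus vehicle, of each member with its 95% interval, beside the values after correction for GC content and length and without vehicle B or vehicle E. Cacng2 stays near -0.55 after the correction, whereas Cnih2 moves from -0.36 to -0.05.

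Base composition moved with the groups. Slopes were fitted to each gene's log2 CPM minus its mean over the 7 libraries. They are therefore relative between libraries, and the opposite signs of the groups follow from this centring. Their means were -0.06 ± 0.04 per 10 percentage points of GC content in AM6545 (SD, n = 4) and 0.08 ± 0.04 in vehicle (SD, n = 3). All 4 AM6545 slopes lay below all 3 vehicle slopes, and the exact permutation p was 0.0286, the smallest that 35 splits allow. Genes with a GC content of 60 to 64% had a median log2 difference of -0.18, and those of 48 to 52% had 0.02. Cnih2 has a GC content of 62.3% and Cacng8 of 60.7%, whereas Cacng2 has 51.2% and the median gene 50.4%. After a correction of each library's trend with GC content and then with length, the log2 difference of Cnih2 was -0.05 and that of Cacng8 was 0.15. Cacng2 was at -0.55 after the same correction, with an unadjusted p of 0.00492 (edgeR), and Cacng7, at 57.9% GC, was at -0.54. The members' median was then -0.05, and 1 of the 10 was below an unadjusted p of 0.05, beside 6.72% of all genes.

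**Figure D4:**
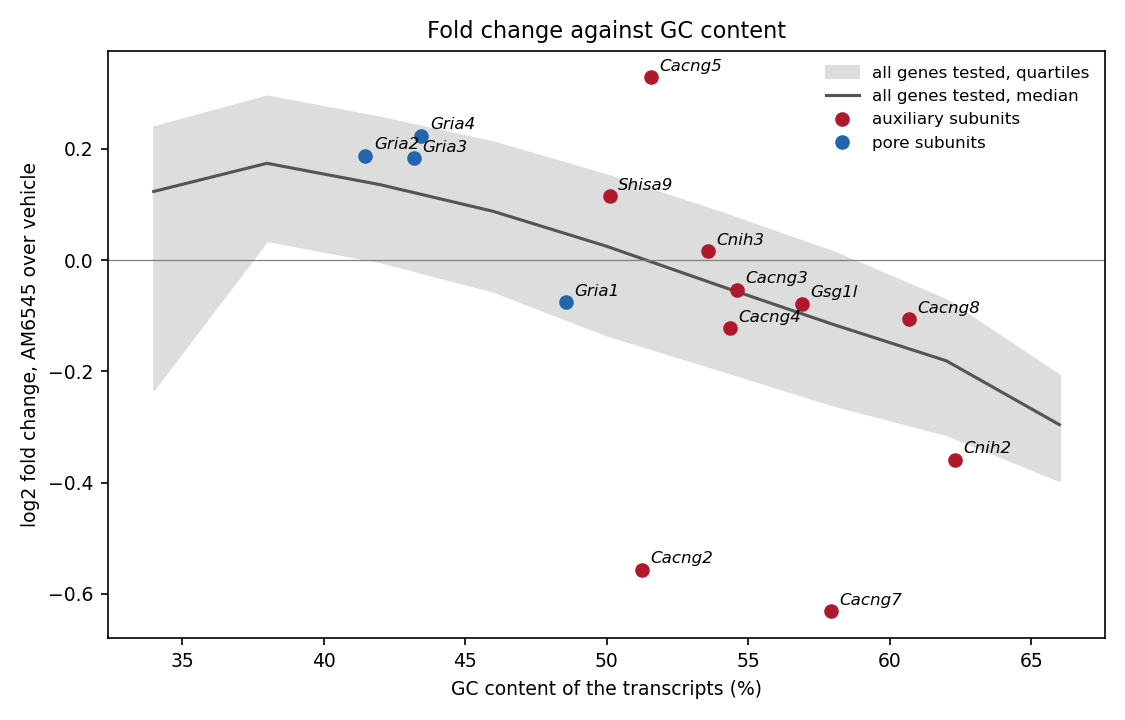
Log2 difference, AM6545 minus vehicle, against GC content, with the members and the pore subunits as labelled points over the median and quartiles of all genes in GC bins. Cnih2 (-0.36) lies just below the lower quartile of -0.31 for genes of 60 to 64% GC, and Cacng2 (-0.56) further below that of -0.13 for genes of 48 to 52%.

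Fewer cells of a type, or fewer of their nerve endings, and less RNA per cell cannot be told apart in these bulk samples. Markers of excitatory neurons (Slc17a7, Camk2a, Neurod6 and Nrgn), the cells that carry most of these receptors, summed to 3672 to 3961 CPM in AM6545 and to 3997 to 4700 CPM in vehicle. Nrgn had a log2 difference of -0.37 (unadjusted p 0.0222, edgeR), while Camk2a had -0.09, Slc17a7 -0.05 and Neurod6 0.15, so the genes of this list did not all lie the same way. Those of CA1 (Fibcd1, Wfs1, Pou3f1 and Mpped1) summed to 617 to 676 and 730 to 769 CPM, with 4 of 4 differences negative. Oligodendrocyte precursor markers summed to 249 to 265 CPM in AM6545 and 280 to 303 CPM in vehicle, with 3 of 4 differences negative. These 3 sums did not overlap between groups, as for Cnih2 and Cacng2, and none of the markers was at 0. Median log2 differences were -0.07 (excitatory neurons), -0.21 (CA1) and -0.13 (oligodendrocyte precursors). After the GC and length correction these medians were -0.04, -0.16 and -0.04. Microglial markers summed to 471 to 492 CPM in AM6545 and to 470 to 635 CPM in vehicle, with overlap. Of these 5 genes Tyrobp (-0.65), C1qa (-0.47) and C1qb (-0.45) were lower without overlap and below an unadjusted p of 0.05 (edgeR), whereas Csf1r had -0.04 and Cx3cr1 0.04. After the GC and length correction Tyrobp, C1qa and C1qb were at -0.19, -0.13 and -0.17. Sums for interneurons (632 to 727 and 651 to 724 CPM), astrocytes (1542 to 1882 and 1462 to 1986 CPM) and CA3 (174 to 208 and 191 to 231 CPM) overlapped. So did those for oligodendrocytes, endothelium, choroid plexus, dentate gyrus and CA2. Choroid plexus markers had 4 of 4 differences negative (median -0.38), and endothelial markers 4 of 4 positive (median 0.16). The part of all these cell types in the members' differences was not tested.

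The balance between auxiliary and pore subunits was then described per library, as sums in TPM. Together the members reached 2.35, 2.53, 2.13 and 2.86 times the sum of Gria1 to Gria4 in AM6545 B, D, E and F. In vehicle B, D and E the ratio was 4.33, 3.24 and 2.73. AM6545 F lay above vehicle E, so the groups overlapped, at 2.47 ± 0.308 (SD, n = 4) and 3.43 ± 0.820 (SD, n = 3). Most of this sum was Cnih2, with a mean share of 86.1% of the members' TPM in AM6545 and 88.5% in vehicle. The members without Cnih2 were 0.340 ± 0.0183 of the pore sum in AM6545 (SD, n = 4) and 0.389 ± 0.0562 in vehicle (SD, n = 3), with overlap. The 6 TARPs together were 0.142 ± 0.00886 of the pore sum in AM6545 (SD, n = 4) and 0.170 ± 0.0232 in vehicle (SD, n = 3), again with overlap. The pore sum itself was 676 ± 73.1 TPM in AM6545 (SD, n = 4) and 562 ± 82.1 TPM in vehicle (SD, n = 3). Its groups did not overlap, but with mean annotated lengths they did.

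Within the cornichons, Cnih2 was 14.9, 14.4, 12.4 and 15.9 times Cnih3 in AM6545 B, D, E and F and 21.6, 17.3 and 17.7 times in vehicle B, D and E. The groups did not overlap, with means of 14.4 ± 1.46 (SD, n = 4) and 18.8 ± 2.36 (SD, n = 3). Within the TARPs, Cacng3 made up 67.8% ± 3.08 of TPM in AM6545 (SD, n = 4) and 66.1% ± 3.01 in vehicle (SD, n = 3). Cacng2 made up 10.02% ± 0.995 in AM6545 (SD, n = 4) and 13.6% ± 3.15 in vehicle (SD, n = 3), without overlap. These ratios were given no test. Cnih2 and Cnih3 differ in GC content, at 62.3% and 53.6%, and the GC slopes given above differ between the groups. Their part in this ratio was not tested.

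**Figure D5:**
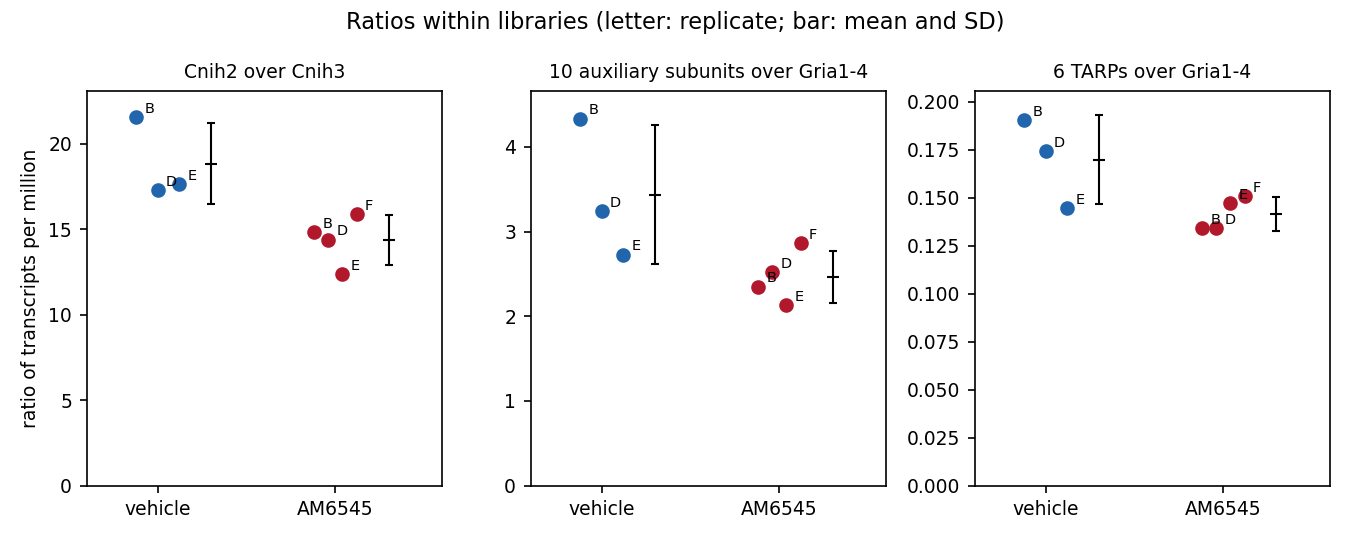
Ratios of TPM per library, in panels from left to right Cnih2 to Cnih3, all members to the pore subunits and the TARPs to the pore subunits, each with its own axis from 0, points labelled by replicate letter and bars at the mean with its SD. AM6545 and vehicle separate in Cnih2 to Cnih3, at means of 14.4 and 18.8, and overlap in both ratios to the pore subunits. Cnih2 makes up 86.1% of the members' TPM in AM6545 and 88.5% in vehicle (means).

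Of the pore subunits, none passed an adjusted p of 0.05 or an unadjusted p of 0.05 (edgeR). Gria1 had a log2 difference of -0.08, and its AM6545 libraries, at 460 to 496.8 CPM, were all below its vehicle libraries, the lowest of which held 497.02 CPM. On the TPM scale Gria1 was at 174 ± 7.06 in AM6545 (SD, n = 4) and 169 ± 11.6 in vehicle (SD, n = 3), with overlap and the opposite sign. Gria2, Gria3 and Gria4 had 0.19, 0.18 and 0.22, with overlap in CPM. In TPM the groups did not overlap for Gria2 (AM6545 from 379, vehicle up to 367) or Gria3 (AM6545 from 53.0, vehicle up to 51.4). For Gria4 they overlapped on both scales. After the GC and length correction the log2 differences of Gria2, Gria3 and Gria4 were 0.08, 0.03 and 0.01.

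At the transcript level 17 of the members' 26 transcripts in the table were tested. None passed an adjusted p of 0.05 (edgeR), a threshold passed by 0.0177% of 33962 transcripts. At an unadjusted p of 0.05, which 8.39% of transcripts passed, there were 2, Cacng2-201 (p 0.0179) and Cnih2-201 (p 0.0215), each with an adjusted p of 0.559 in edgeR. Cacng2 and Gsg1l have 1 transcript each in the annotation. Cacng5-202 made up 0, 20.8, 27.3 and 0% of the Cacng5 counts in AM6545 B, D, E and F and 0, 5.05 and 23.8% in vehicle B, D and E. It was at 0 in libraries of both groups. Shisa9-204 made up 12.1% ± 3.05 of Shisa9 counts in AM6545 (SD, n = 4) and 16.9% ± 2.75 in vehicle (SD, n = 3). Cacng8-202 made up 59.4% ± 9.43 and 60.0% ± 9.13 of Cacng8.

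Overlapping genes bear on some of these counts, since whether strand was used in counting is not given in the sources used here. Of the exonic bases of Cacng2, 323 (5.86%) are covered by A730060N03Rik on the other strand, a gene not analysed here. Cnih2 shares 14 bases with Yif1a on the other strand, which held 30.7 ± 3.94 CPM in AM6545 (SD, n = 4) against 36.0 ± 1.74 CPM in vehicle (SD, n = 3). That is far below the level of Cnih2. At most 2.64% of the 31-base words of any member occur in another gene.

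Other constituents of native AMPA receptor complexes, from a list of 15 genes that includes Cnih1, Shisa6 and the olfactomedins, had 5 below an unadjusted p of 0.05 in the lower direction and none in the higher, and none passed an adjusted p of 0.05 (edgeR). Among all genes 8.70% were lower at that unadjusted p, and without vehicle B 1 of the 15 was below it. Among all genes 954 were below it in that fit, against 2134 with all 7 libraries. The median log2 difference of the 15 genes was -0.17. Olfm2, a secreted olfactomedin, had -0.44 (SE 0.16), and Shisa8 had -0.54 (SE 0.20). Shisa7, a relative of Shisa9 known from hippocampal synapses, had -0.33 (SE 0.12), without overlap between groups. Vwc2 had -0.83 (SE 0.31), at 1.10 CPM in AM6545. The remaining one, Prrt1 at -0.41 (SE 0.17), was named after its value was seen. Without vehicle B, Olfm2 was at -0.23, Shisa7 at -0.17, Shisa8 at -0.55, Vwc2 at -0.52 and Prrt1 at -0.16. Without vehicle E, 3 of the 15 passed an adjusted p of 0.05 (edgeR), beside 6.38% of all genes. They were Vwc2 (-1.10), Olfm2 (-0.55) and Shisa6 (-0.46). After the GC and length correction Olfm2 was at -0.32, Shisa7 at -0.28, Shisa8 at -0.29, Vwc2 at -0.82 and Prrt1 at -0.18. Of the 15 genes 13 were then negative, with a median of -0.18. In that fit 3 of the 15 were below an unadjusted p of 0.05 (edgeR), beside 6.72% of all genes. They were Vwc2, Shisa7 and Cnih4 (-0.29), and Olfm2, Shisa8 and Prrt1 were not among them.

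Among 9 biogenesis and depalmitoylation genes, which assemble receptors or remove palmitate from PSD-95, 2 were below an unadjusted p of 0.05 in the lower direction (edgeR) and 1 in the higher. The shares of all genes were 8.70% and 5.86%. Sacm1l, a lipid phosphatase of the endoplasmic reticulum, had a log2 difference of 0.44, with 4 of 4 AM6545 libraries above vehicle. Abhd17a, a depalmitoylase of PSD-95, had -0.32, and Porcn had -0.25. The correction for GC and length gave 0.03 for Abhd17a, which turned its direction, -0.13 for Porcn and 0.21 for Sacm1l. Without vehicle B, Abhd17a was at -0.16, Porcn at -0.14 and Sacm1l at 0.30. Without vehicle E they were at -0.39, -0.27 and 0.53, and 1 of the 9, Sacm1l, passed an adjusted p of 0.05 (edgeR). That fit called 6.38% of all genes. The median of the 9 genes was -0.08. Among 16 PDZ and trafficking partners, 2 were lower and 1 higher at that threshold, beside the same shares of all genes. Their median was 0.08. Dlg4, which encodes PSD-95, had -0.52 and Epb41l1 had -0.30, and Akap5, which anchors kinases to the receptor, had 0.23. Without vehicle B, Dlg4 was at -0.28, Epb41l1 at -0.16 and Akap5 at 0.17. None of the 16 was then below an unadjusted p of 0.05 (edgeR), in the fit where 954 of all genes were. Without vehicle E, 4 of the 16 passed an adjusted p of 0.05 (edgeR), beside 6.38% of all genes. They were Dlg4 (-0.75), Epb41l1 (-0.43), Nsf (0.72) and Gripap1 (0.51). After the GC and length correction Dlg4 was at -0.52, Epb41l1 at -0.16 and Akap5 at 0.18. With all 7 libraries, the adjusted p of the 11 genes of these lists named for an unadjusted p below 0.05 ranged from 0.212 to 0.338 (edgeR). Cacng6 and Gsg1, relatives that are not TARPs, had 0.15 and -0.24 at under 3 CPM (Gsg1 0.19 without vehicle B), and Cacng1 and Gsg1l2, with 9 counts and 1 count in all libraries together, were below the filter.

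Across libraries the 3 lower members correlated with each other. They were picked because they separate the groups, which in itself favours a positive correlation over the same libraries. Pearson's r of log2 CPM over the 7 libraries, which share the treatment groups and the GC slopes, was 0.98 for Cacng2 with Cnih2, 0.92 for Cacng7 with Cnih2 and 0.91 for Cacng2 with Cacng7. Pairs not wholly within these 3 included Cacng3 with Gsg1l and Cacng2 with Cacng4, both at 0.87. The lowest of all pairs was Cacng3 with Cacng8 at -0.75. Among genes of at least 10 CPM, the closest in pattern to Cnih2 were 1110065P20Rik, Ddit3 and Rpl36a (r of 0.998, 0.997 and 0.996), and 856 genes had an r above 0.9 with it. For Shisa9 they were E130311K13Rik, B3galt2 and Cept1 (0.98, 0.97 and 0.96), with 34 such genes. For Cacng8 they were D10Jhu81e, Fbxo6 and Prkca (0.97, 0.96 and 0.96), with 68.

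Promoters of the 3 genes whose groups did not overlap are printed for comparison, from RefSeq on GRCm38.p6, each 250 bases before to 50 bases after the RefSeq start used in that table, 5′ to 3′ on the gene's strand, with each CG dinucleotide in capitals. They lie at chr15:78119231-78119530 (Cacng2, minus strand), chr7:3332575-3332874 (Cacng7, plus strand) and chr19:5098472-5098771 (Cnih2, minus strand). RefSeq genes can have several starts: the Cacng2 window lies wholly inside the gene, and the Cacng7 window inside the RefSeq gene, downstream of their outermost starts. The Cnih2 window spans the annotated start of its gene.
Cacng2: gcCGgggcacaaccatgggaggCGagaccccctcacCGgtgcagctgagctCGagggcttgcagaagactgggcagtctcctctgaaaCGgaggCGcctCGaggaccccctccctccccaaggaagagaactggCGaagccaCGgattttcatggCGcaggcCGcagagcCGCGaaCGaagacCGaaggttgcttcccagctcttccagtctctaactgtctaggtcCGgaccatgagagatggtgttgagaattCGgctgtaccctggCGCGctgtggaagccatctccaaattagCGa
Cacng7: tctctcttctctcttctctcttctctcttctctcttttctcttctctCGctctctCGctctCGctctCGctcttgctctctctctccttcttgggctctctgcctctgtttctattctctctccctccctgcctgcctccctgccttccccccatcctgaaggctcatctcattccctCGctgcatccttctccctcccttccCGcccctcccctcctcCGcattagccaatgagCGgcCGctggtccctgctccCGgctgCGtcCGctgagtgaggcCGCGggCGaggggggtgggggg
Cnih2: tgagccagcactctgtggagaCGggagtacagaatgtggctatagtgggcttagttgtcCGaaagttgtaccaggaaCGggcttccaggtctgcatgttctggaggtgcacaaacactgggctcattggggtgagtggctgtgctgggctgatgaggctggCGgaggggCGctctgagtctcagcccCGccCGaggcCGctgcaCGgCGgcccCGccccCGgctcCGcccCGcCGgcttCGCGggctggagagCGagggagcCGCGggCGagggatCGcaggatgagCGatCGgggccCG
They held 20, 15 and 25 CG dinucleotides, beside a median of 7 over 32851 promoters of this length. That was more than in 73.5, 65.4 and 81.6% of those promoters. Windows of members whose groups overlapped held from 2 (Cacng8) to 42 (Cnih3). None of the 3 printed promoters held the cyclic AMP response element TGACGTCA or its shorter forms TGACG and CGTCA. These forms are part of it and were searched on both strands. The full element occurs in 1.79% of all promoters and a shorter form in 20.8%. Of the 10 members 7 had a promoter entry, Cacng5 with 2, and none of these 8 windows held either form.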

How the data were processed

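Hippocampal synaptoneurosome RNA was sequenced in 7 libraries. RNA came from RNeasy columns and went into a SMARTer low-input library preparation, per the labels' protocols. The authors deposited estimated counts per gene and per transcript. The submitters' processing notes name Salmon 1.5.2 and mm10, with no role. The annotation used for counting and its strand setting are not given in the sources used here. Library totals ranged from 19174529 to 25894586 counts.

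Counts were rounded, filtered with filterByExpr, scaled by TMM and tested with edgeR 4.0.16's quasi-likelihood test with robust estimation, without covariates, over 14654 genes, with Benjamini-Hochberg adjustment. Standard errors are the absolute log2 difference divided by the square root of F. Names, lengths and GC content are from GENCODE M21. Deposited identifiers carry higher versions than that release, so lengths may differ from those used for counting. The members and lists were chosen with earlier results of these data known. All members were named, with Gria1 to Gria4, up to 4 genes per other list below an unadjusted p of 0.05, transcripts with at least 10% of a gene's counts, and the 3 genes closest in pattern to Cacng8, Cnih2 and Shisa9. Further genes of the lists were named for the fit without vehicle E or for the GC and length correction. GC slopes and patterns used log2(CPM + 1). Alternatives were other scalings, DESeq2 1.42.0, limma-voom (limma 3.58.1), other filters, a replicate block, a GC and length correction (lowess, span 0.3) and leaving out each library. The limma-voom fit weighted each library by its estimated quality and used robust estimation. The main edgeR fits of genes and transcripts were tested on simulated data, and the alternative fits were not.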

Additional observations from a re-analysis of the deposited data

Results flagged for a closer look

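Gria2 in AM6545 library E held 1161 CPM, whereas the other 3 AM6545 libraries held 937 to 975 CPM. Its gap to the nearest of the others was 0.832 of the group's range, above Dixon's 95% critical value for 4 libraries. Of 29 groups of values checked in this way 1 stood apart, and chance gives about 1 in 20, or 1.45.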

How the results depend on the processing

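Of the members' results, Cacng2 and Cnih2 kept a negative log2 difference in all 18 alternatives (-0.72 to -0.33 and -0.45 to -0.05), and Cacng7 in its 17 (-0.76 to -0.39). Members called numbered 1 with limma-voom (Cacng2, adjusted p 0.0375), beside 2.69% of all genes, and 0 to 2 when 1 library was left out, 2 without vehicle E. Genes called numbered 205 with DESeq2, 394 with limma-voom, 2 with a mean of at least 50 counts, 2 without robust estimation, 0 after the GC and length correction (985 at an unadjusted p below 0.05 in edgeR) and 0 to 944 when 1 library was left out. Transcripts called numbered 431 with DESeq2, 27 without a filter, 10 with a mean of at least 50 counts and 1 to 14 when 1 library was left out. With the replicate letter as a block, 1 gene, 0 members and 0 transcripts were called. Same-letter libraries had correlations of deviations from the group means of -0.338, -0.144 and -0.267. Those of other letters ranged from -0.175 to 0.387. No positive pairing by letter was seen, but whether the letters mark a shared batch was not tested.

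Signs changed for Cacng5 (-0.14, limma-voom), Cacng8 (0.15 after the GC and length correction, 0.13 with the block added), Cnih3 (-0.0090 with limma-voom, -0.0029 after the correction) and the transcript Cnih3-201 (0.015 with total counts). When 1 library was left out, ranges crossed 0 for Cacng3 (-0.17 to 0.014) and Cnih3 (-0.032 to 0.056). They also did for the transcripts Cacng3-201 (-0.17 to 0.026), Cacng4-201 (-0.23 to 0.0064), Cacng5-202 (-0.55 to 2.25), Cacng8-202 (-0.25 to 0.068), Cnih3-201 (-0.070 to 0.031) and Gsg1l-201 (-0.24 to 0.0052). With mean annotated transcript lengths, the members without Cnih2 were 0.439 and 0.479 of the pore sum in AM6545 and vehicle, and the TARPs 0.183 and 0.209. The GC slope difference ranged from -0.154 to -0.113 when 1 library was left out, where no p below 0.05 can be reached. The causes of these shifts were not tested. Depth limits Cacng7 and Cacng8, with at most 40 counts per library.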
